A study of Mus musculus with 58 samples.

Results

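The comparison set the prefrontal cortex of Tanc2 heterozygous (HT) mice raised on lithium against that of HT mice raised on fluoxetine. The members were the 9 libraries labelled HT lithium (5 females, 4 males) and the 10 labelled HT fluoxetine (5 of each sex), 19 of the 58 libraries of the series, chosen by genotype and drug label alone. Lithium is a mood stabiliser and fluoxetine a serotonin reuptake inhibitor. Dams were given the drug, which passed to the pups in milk between postnatal days 3 and 24, and prefrontal cortex was collected on day 25. All mice were C57BL/6J and each library came from 1 mouse. All 19 carried the heterozygous label, so Tanc2 genotype did not vary between the drugs. As a common baseline 10 HT mice given vehicle are quoted, and 20 wild-type (WT) mice given lithium or fluoxetine (10 each) show the same contrast with no Tanc2 allele altered. The labels do not describe the Tanc2 allele, the drug doses or the litters, so the p-values count each mouse as independent even though littermates shared a treated dam.

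Lithium inhibits the kinase GSK3 and the phosphatases that recycle inositol, whereas fluoxetine blocks the serotonin transporter and so prolongs serotonin signalling. In cortical neurons, synaptic activity raises calcium and activates ERK and CREB, which switch on immediate early genes within minutes. The endoplasmic reticulum answers a load of unfolded protein by raising its chaperones through the factors ATF6 and XBP1, which bind the endoplasmic reticulum stress element (ERSE) of their promoters.

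Strand-specific libraries of polyadenylated RNA were sequenced, and the values below are the deposited normalized reads, scaled per library by the submitters. Behind them stood 23270000 to 34850000 reads per library in the 19 mice, with a median of 25910000. Gm10221, a processed pseudogene, divides the libraries in a way the labels do not name. It had 146 to 256 normalized reads in the 9 HT lithium libraries and 61.0 to 230 in the 5 HT fluoxetine females, and none in the 5 HT fluoxetine males or the 10 HT vehicle mice. The mitochondrially coded mt-Atp6 moved with it, at 39874 to 76292 normalized reads in the HT lithium mice, 48156 to 65131 in the HT fluoxetine females and 21180 to 34066 in the HT fluoxetine males. The contrast between females is therefore free of this division, and in males the division and the drug cannot be told apart. All 15 upper layer markers and 18 of 19 deep layer neuron markers were among the 18088 genes given. Each of these passed the filter on low values, but so did 17925 of the 18088 genes and all 22 striatal markers given. Passing the filter therefore does not check the labelled tissue. Some libraries also stood apart in markers of neighbouring tissue. HT lithium female 2 had 49763 summed normalized reads over 22 markers of striatal projection neurons, against 20176 to 33846 in the other 18 mice. HT fluoxetine male 3 had 43450 over 23 markers of olfactory bulb and neuroblasts, against 13284 to 35903 in the others.

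Tanc2 itself did not separate the drugs. Tanc2 (ENSMUSG00000053580, GRCm38 chromosome 11, 105589986 to 105929304) encodes a scaffold protein of excitatory synapses. It had between 6240 and 9106 normalized reads in the HT lithium mice (median 8220) and between 7414 and 8831 in the HT fluoxetine mice (median 8160), with wide overlap. The log2 difference, lithium minus fluoxetine, was −0.02 ± 0.04 (SE; limma adjusted p = 0.83). WT mice averaged 7468 ± 355 under lithium and 7529 ± 439 under fluoxetine (SD, n = 10 each), so that a value summed over the gene was not lower in mice labelled HT and does not check the genotype labels.

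Of 17925 genes tested, 1121 (6.25%) differed between lithium and fluoxetine in HT mice, with both sexes weighed equally and a limma adjusted p under 0.05. Lithium mice were higher in 572 of them (3.19% of all genes tested) and lower in 549 (3.06%). The differences were mostly small: the median absolute log2 difference of the 1121 genes was 0.22, 969 of them stayed under 0.5, and 22 reached 1 or more. Without HT lithium female 4 the count of genes passing was 670, and without HT lithium male 2 it was 705. Complete separation of the 19 mice was rare. In 14 genes (0.0781%) every lithium mouse lay above every fluoxetine mouse, and in 8 (0.0446%) every lithium mouse lay below.

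The gene with the smallest p was Zfp189, which encodes a zinc finger transcription factor (ENSMUSG00000039634, GRCm38 chromosome 4, 49521176 to 49531517). It had between 266 and 453 normalized reads in the HT lithium mice (median 349) and between 156 and 220 in the HT fluoxetine mice (median 184). Each lithium mouse was thus above each fluoxetine mouse, in females and in males. The means were 360 ± 54.6 under lithium (SD, n = 9) and 183 ± 21.4 under fluoxetine (n = 10), a log2 difference of 0.95 ± 0.09 (SE; limma adjusted p = 1.07e-10). The 10 vehicle mice, at 325 to 405, overlapped the lithium mice and not the fluoxetine mice.

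**Figure D1:**
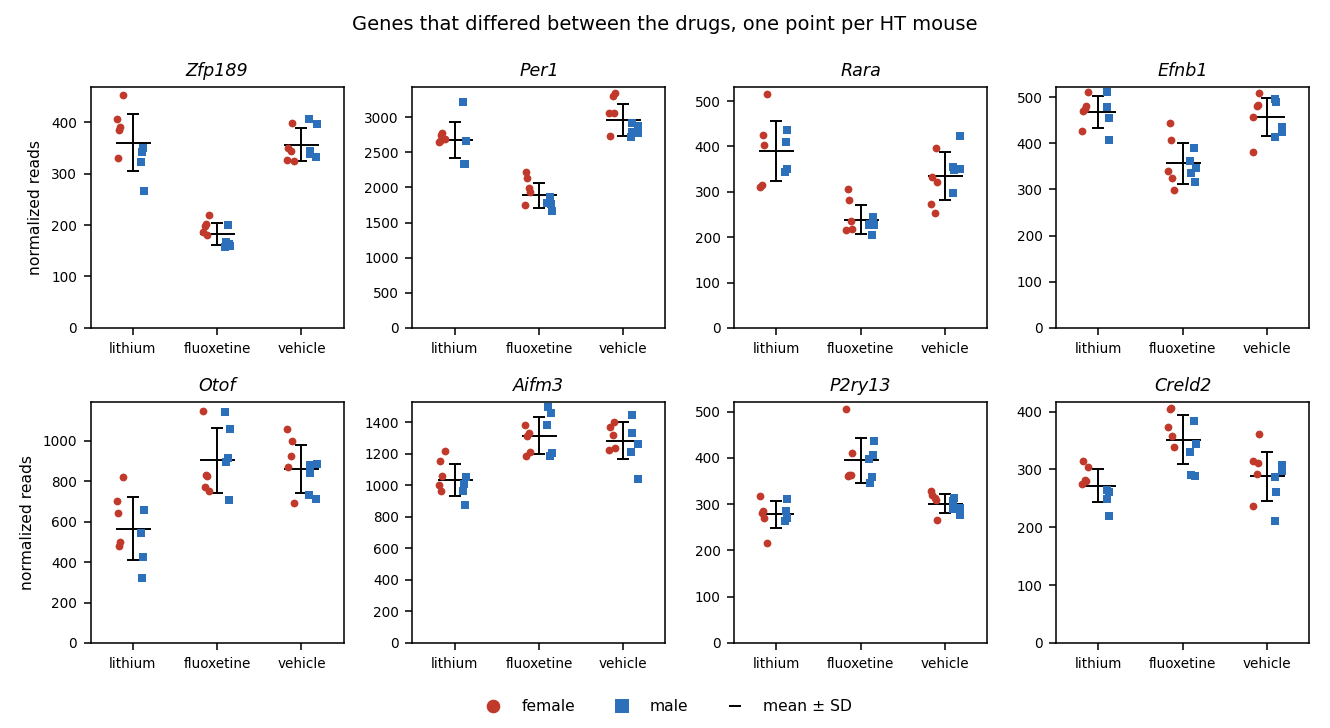
Normalized reads of 8 genes in each HT mouse under lithium, fluoxetine and vehicle, with females as circles, males as squares and bars for mean ± SD. Zfp189, Per1 and Rara are higher in all 9 lithium mice than in any fluoxetine mouse, and P2ry13 is lower in all 9.

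Per1, the clock repressor that glucocorticoids and neuronal activity also induce, had between 2328 and 3212 normalized reads in lithium mice (median 2660) and between 1661 and 2221 in fluoxetine mice (median 1816). The groups did not overlap, and the log2 difference was 0.50 ± 0.06 (limma adjusted p = 3.82e-07). Dyrk3, a kinase that dissolves stress granules, had between 281 and 390 under lithium (median 352) and between 189 and 254 under fluoxetine (median 223). It too was without overlap, with a log2 difference of 0.62 ± 0.07 (adjusted p = 2.44e-07). Rara, the retinoic acid receptor alpha, had between 310 and 515 under lithium (median 404) and between 205 and 306 under fluoxetine (median 228). The lowest lithium mouse stood just above the highest fluoxetine mouse, and the log2 difference was 0.70 ± 0.11 (adjusted p = 4.22e-05).

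The other 10 of the 14 genes named for the smallest p among the higher ones had log2 differences between 0.24 and 1.06. Tmem252 had 52.4 to 139 normalized reads under lithium (median 85.5) and 26.2 to 57.3 under fluoxetine (median 34.5). The groups overlapped at their edges, and its log2 difference of 1.06 ± 0.17 was the largest of the 14 (limma adjusted p = 0.000122). Sgk1, a kinase induced by glucocorticoids, averaged 2121 ± 363 under lithium and 1484 ± 105 under fluoxetine (SD, n = 9 and 10). The fluoxetine mice were close together, and 8 of the 9 lithium mice lay above all of them, with HT lithium male 1 (1533) inside their range. This gave a log2 difference of 0.48 ± 0.07 (adjusted p = 1.72e-05). Ddit4, an inhibitor of mTORC1, averaged 1224 ± 145 under lithium and 858 ± 161 under fluoxetine (log2 difference 0.51 ± 0.09, adjusted p = 0.000344). Nedd9 (0.57), Rasl11a (0.66), Elmsan1 (0.38), Efnb1 (0.40), Klf15 (0.40) and Vps37b (0.24) were also higher by these log2 differences. They encode a focal adhesion scaffold, a Ras-like GTPase, a subunit of a histone deacetylase complex, an ephrin ligand, a transcription factor induced by glucocorticoids and a subunit of the ESCRT-I sorting complex. Rpl35, a protein of the large ribosomal subunit, had 1698 to 2442 normalized reads under lithium (median 1855) and 1278 to 1657 under fluoxetine (median 1540), without overlap.

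Among genes lower under lithium, P2ry13 and Hspa12b separated the 19 mice completely. P2ry13, an ADP receptor of microglia (ENSMUSG00000036362, GRCm38 chromosome 3, 59207892 to 59210882), had between 217 and 317 normalized reads in lithium mice (median 281) and between 346 and 506 in fluoxetine mice (median 381). The log2 difference was −0.50 ± 0.09 (limma adjusted p = 0.000311). Hspa12b, an HSP70 relative of endothelial cells, had between 191 and 229 under lithium (median 205) and between 235 and 337 under fluoxetine (median 267). All 9 lithium mice were below, and the log2 difference was −0.37 ± 0.07 (adjusted p = 0.000581).

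Otof, which encodes the calcium sensor otoferlin and served as a marker of upper layer neurons, had between 319 and 823 normalized reads under lithium (median 543) and between 707 and 1149 under fluoxetine (median 862). Lithium mice were lower with some overlap, and the log2 difference of −0.73 ± 0.12 was the largest of the 14 lower genes named (limma adjusted p = 0.000101). Ddit4l, a relative of Ddit4 that also restrains mTORC1, averaged 401 ± 77.2 under lithium and 648 ± 150 under fluoxetine (log2 difference −0.68 ± 0.12, adjusted p = 0.000305). Ddit4 and Ddit4l thus moved in opposite directions. Igf1r, the receptor for insulin-like growth factor 1, had 1330 to 2073 normalized reads under lithium (median 1825) and 1974 to 2414 under fluoxetine (median 2187). The groups overlapped at their edges, with a log2 difference of −0.29 ± 0.05 (adjusted p = 0.000453). The remaining 9 were Ankzf1, Cpne1, Aifm3, Mllt6, Cpne5, Rps6ka2, Rasgef1b, Creld2 and Ppp1r10, with log2 differences from −0.18 to −0.40. Among them are a hydrolase of ribosome quality control (Ankzf1), a pair of copines that bind membranes upon calcium (Cpne1 and Cpne5), an ERK-activated ribosomal S6 kinase (Rps6ka2) and an endoplasmic reticulum protein (Creld2).

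Females, which all had Gm10221 reads, gave the contrast free of that division. Among them 96 genes passed (0.536%), 51 higher (0.285%) and 45 lower (0.251%) under lithium. Among males 283 passed (1.58%), 154 higher (0.859%) and 129 lower (0.72%). The female count depended on single mice and was 8 without HT fluoxetine female 4 and 13 without HT lithium female 4, and the male count was 63 without HT lithium male 2. The libraries of the sexes are separate. Of the 96 genes called in females, 93 had the same sign in males, 61 of those had an unadjusted limma p under 0.05 there, and 17 passed there too. Of the 283 called in males, 255 had the same sign in females, 109 of those had an unadjusted p under 0.05 and 17 passed. All 28 named genes, which were chosen on both sexes together, had an unadjusted p under 0.05 within each sex, and 18 passed in females and 23 in males. Across all genes tested, which are not independent replicates, the log2 differences of the sexes had a Pearson r of 0.26.

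A test of the difference between the sexes passed for 1 gene, Gm10221 itself (0.00558% of genes tested). Its log2 difference was 0.70 in females and 7.59 in males, and the difference of the differences, females minus males, was −6.88 (limma adjusted p = 0.00266). mt-Atp6 differed by 0.07 in females and 0.98 in males. An unadjusted limma p under 0.05 was reached by 917 genes (5.12%). After adjustment edgeR called 0 genes and DESeq2 8. With presence of Gm10221 reads as a term of the fit 218 genes passed, 204 of them among the 1121. In that fit sex was an additive term and not part of the groups, so more than the Gm10221 term was changed. Of the 28 named genes 26 kept their call, all but Rpl35 and Mllt6. In the 14 HT libraries that had those reads (9 lithium mice and 5 fluoxetine females), with sex as a term, 5 genes passed. Zfp189, Sgk1, Tmem252 and Ddit4 were among these 5.

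**Figure D2:**
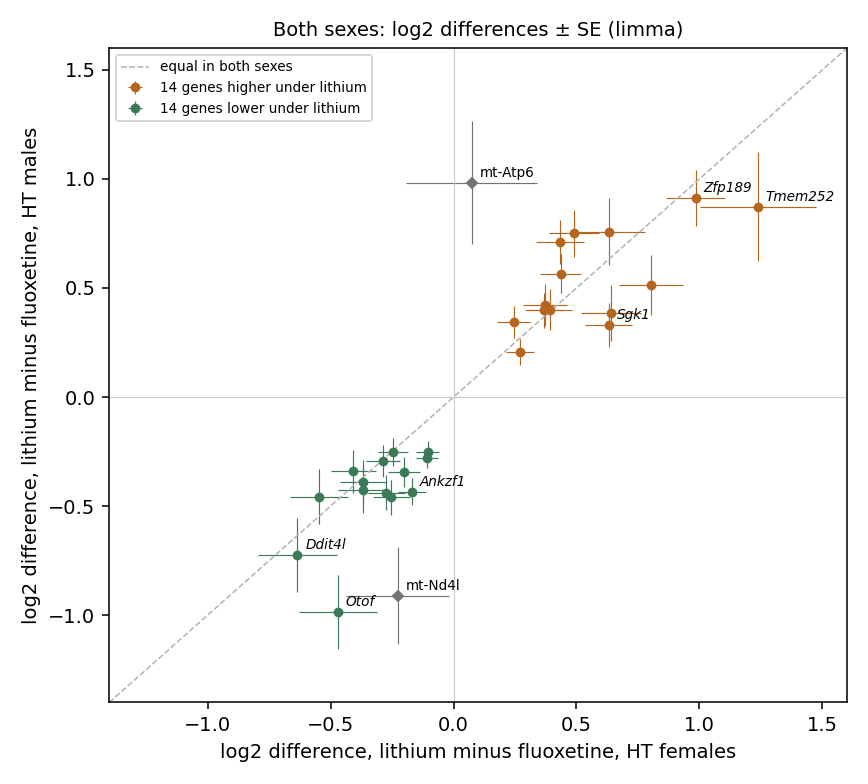
Log2 differences, lithium minus fluoxetine, in HT females (x axis) and HT males (y axis), with bars for SE from limma, for the 28 named genes and for mt-Atp6 and mt-Nd4l. All 28 named genes have the same sign in both sexes, whereas mt-Atp6 stands at 0.07 in females and 0.98 in males.

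Against vehicle, the higher and the lower genes had different positions. Both contrasts with vehicle use the same 10 HT vehicle mice, and each shares its drug libraries with the comparison of the drugs, so their values are set side by side only. All 9 lithium mice and the 5 fluoxetine females had Gm10221 reads and none of the 10 vehicle mice did, so lithium and this division cannot be told apart against vehicle, nor can fluoxetine and the division in females. In the contrast of lithium with vehicle 16.3% of all genes tested were called (8.25% higher, 8.03% lower; 29.1% had an unadjusted p under 0.05). In that of fluoxetine with vehicle 3.54% were called (1.46% higher, 2.09% lower; 17.0% had an unadjusted p under 0.05). Of the 14 genes higher under lithium than under fluoxetine, 3 were called higher in lithium minus vehicle (Nedd9, Sgk1 and Rpl35) and 13 were called lower in fluoxetine minus vehicle, all but Rpl35. Zfp189 differed by −0.01 in lithium minus vehicle and by −0.96 in fluoxetine minus vehicle, and Rpl35 by 0.41 and 0.11. Of the 14 lower genes, 10 were called lower in lithium minus vehicle. In fluoxetine minus vehicle 3 of the 14 were called higher (P2ry13, Creld2 and Ppp1r10) and 1 lower (Mllt6). Otof differed by −0.66 in lithium minus vehicle and by 0.06 in fluoxetine minus vehicle, and P2ry13 by −0.12 and 0.38.

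Part of the immediate early genes were higher under lithium than under fluoxetine. Of 45 tested, 15 were called higher and 0 lower, beside 3.19% of all genes tested, and their median log2 difference was 0.25 (all genes 0.00102). It was 0.26 in females and 0.21 in males. Junb, an AP-1 subunit, had between 949 and 1926 normalized reads in lithium mice (median 1177) and between 458 and 1048 in fluoxetine mice (median 671). Lithium mice were higher with a small overlap, and the log2 difference was 0.80 ± 0.15 (limma adjusted p = 0.000624). Sik1, a kinase that restrains CREB coactivators, had between 295 and 696 under lithium (median 416) and between 210 and 494 under fluoxetine (median 300; log2 difference 0.62 ± 0.12, adjusted p = 0.00185). Klf10 differed by 0.57 and Ier5l by 0.53. Arc, which regulates AMPA receptor endocytosis, averaged 2330 normalized reads under lithium and 1234 under fluoxetine, with 3831 under vehicle (log2 difference of the drugs 0.90 ± 0.25, adjusted p = 0.0197). Atf3 (1.28), Fosb (0.67), Dusp1 (0.53) and Nr4a1 (0.51) passed as well. Egr1 had a log2 difference of 0.14 (adjusted p = 0.694), Fos of 0.55 (0.121) and Npas4 of 0.13 (0.752), and none of them passed.

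In fluoxetine minus vehicle 20 of the 45 were called lower and 1 higher, beside 2.09% and 1.46% of all genes tested, with a median log2 difference of −0.26. In lithium minus vehicle 6 of the 45 were called lower and 3 higher, beside 8.03% and 8.25% of all genes tested, with a median of −0.06. Junb differed by −0.08 in lithium minus vehicle and by −0.89 in fluoxetine minus vehicle, and Arc by −0.79 and −1.70. Of the 12 ERK feedback genes, Dusp5 was called higher under lithium than under fluoxetine (log2 difference 0.65 ± 0.15, limma adjusted p = 0.00582), and the list's median was 0.05. Without HT lithium male 1 the count of immediate early genes called fell to 9, and the median over the 19 sets with 1 library left out ran from 0.21 to 0.31. With only the 4 groups compared in the fit 10 passed, and among the 14 HT libraries with Gm10221 reads 0 passed with a median of 0.26. In RefSeq promoter windows (GRCm38.p6, 250 bases before to 50 after a start; 36 of the 45 genes had one) the CRE letters TGACGTCA were found for 4 genes on either strand. These were Btg2, Dusp1, Maff and Plk2, of which Dusp1 and Plk2 were called. Of all 32817 windows, counted by window and not by gene, 1.79% hold those letters. The CArG box, another promoter element sought in this list, was found for 2 genes, Egr2 and Zfp36, and neither was called. It is held by 1.63% of all windows.

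**Figure D3:**
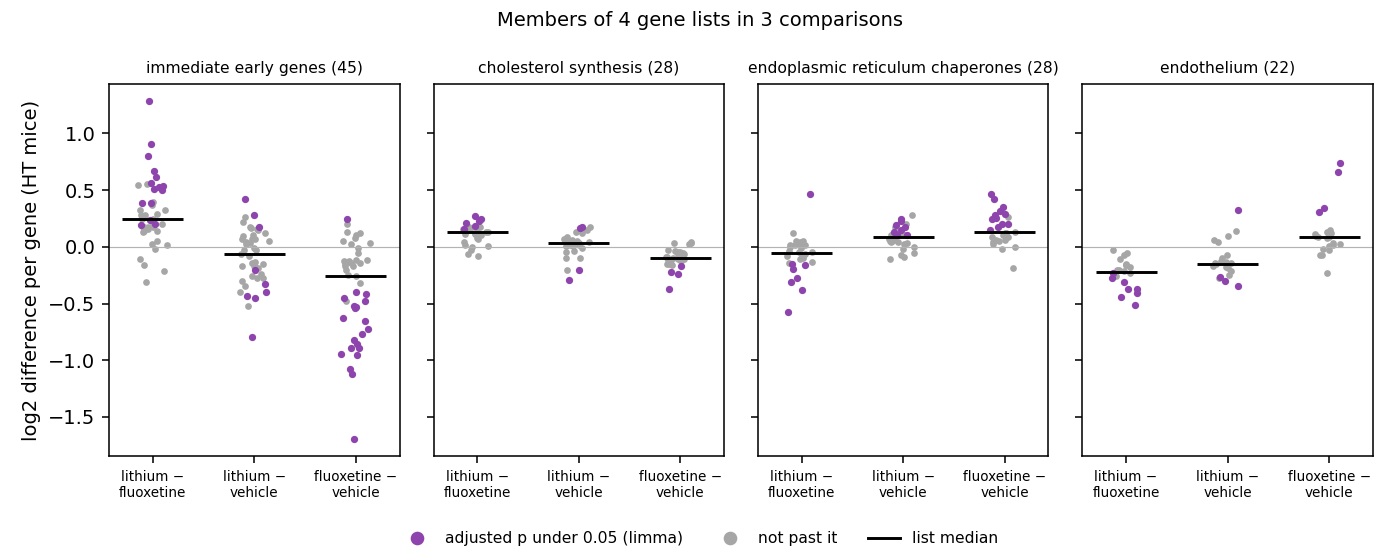
Log2 difference of each member of 4 gene lists in HT mice, in lithium minus fluoxetine, lithium minus vehicle and fluoxetine minus vehicle, with genes past a limma adjusted p of 0.05 in purple and the list median as a line. Immediate early genes have a median of 0.25 between the drugs, −0.06 in lithium minus vehicle and −0.26 in fluoxetine minus vehicle.

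Of 26 genes induced by glucocorticoids 8 were called higher and 1 lower under lithium, beside 3.19% and 3.06% of all genes tested. The median log2 difference was 0.15, with 0.21 in females and 0.07 in males. The list shares Per1 and Dusp1 with the immediate early list, and Ddit4 with the list of the integrated stress response. Besides these, Sgk1, Klf15, Errfi1, Nfkbia and Klf9 were higher and Mertk was lower. Errfi1, a feedback inhibitor of the EGF receptor, averaged 866 ± 91.4 normalized reads under lithium and 746 ± 47.9 under fluoxetine (SD, n = 9 and 10; log2 difference 0.20 ± 0.05, limma adjusted p = 0.0067). Fkbp5, a cochaperone of the glucocorticoid receptor, had a log2 difference of 0.33 ± 0.13 and did not pass (adjusted p = 0.12).

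Of 28 genes of cholesterol synthesis and its control, 6 were called higher and 0 lower under lithium, beside 3.19% and 3.06% of all genes tested. A difference above 0 was found in 24 of the 28. The median log2 difference was 0.13, with 0.15 in females and 0.08 in males. Insig1, which holds SREBP in the endoplasmic reticulum when sterols are plentiful, had between 1662 and 2213 normalized reads in lithium mice (median 1910) and between 1404 and 1774 in fluoxetine mice (median 1601). Lithium mice were higher with a small overlap, and the log2 difference was 0.27 ± 0.05 (limma adjusted p = 0.000879). Sqle (0.24), Cyp51 (0.21) and Pmvk (0.18), enzymes of the pathway, were among the others that passed. Insig1 differed by 0.03 in lithium minus vehicle and −0.24 in fluoxetine minus vehicle, and Sqle by 0.18 and −0.06. The letters TCACNCCAC of the sterol regulatory element, sought on either strand, were found for 1 of the 20 list genes with a promoter window, Hmgcs1. Too few genes of the list had a window, so this check is void. Of all windows, counted by window and not by gene, 1.24% hold those letters.

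Endoplasmic reticulum chaperones and folding factors were lower under lithium than under fluoxetine in 7 of 28 genes and higher in 1, Cdnf. The shares of all genes tested were 3.06% lower and 3.19% higher. The list's median log2 difference was −0.05, with −0.11 in females and −0.03 in males. Both drugs were above vehicle in part of the list. In lithium minus vehicle 8 genes were called higher and in fluoxetine minus vehicle 12, beside 8.25% and 1.46% of all genes tested. Creld2 (ENSMUSG00000023272), an ER stress-induced protein, had between 219 and 314 normalized reads in lithium mice (median 274) and between 289 and 406 in fluoxetine mice (median 351). Lithium mice were lower with a narrow overlap, and the log2 difference was −0.38 ± 0.07 (limma adjusted p = 0.000586). Derl3, a factor of ER-associated degradation, had 21.6 to 38.9 under lithium (median 25.9) and 30.6 to 55.6 under fluoxetine (median 40.6; log2 difference −0.57 ± 0.14, adjusted p = 0.00834). Pdia4 (−0.27), Sdf2l1 (−0.31), Pdia6 (−0.19), Dnajc3 (−0.16) and Manf (−0.15) passed too. They include a pair of disulfide isomerases, a cochaperone of Hspa5 and a secreted stress-induced factor. Hspa5, the main chaperone of the compartment, differed by −0.11 ± 0.06 and did not pass (adjusted p = 0.3), with 0.24 in lithium minus vehicle and 0.35 in fluoxetine minus vehicle.

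The letters of the ERSE, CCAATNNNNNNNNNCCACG on either strand, were found in the promoter windows of 9 of the 25 list genes that had one. Of all 32817 windows, counted by window and not by gene, 39 (0.119%) hold them. Of the 7 lower genes 4 held it, and Calr, Canx, Hsp90b1, Hspa5 and Syvn1 also held it without being called. The windows of the 4 genes are shown because they hold this element in genes that were lower under lithium. They are RefSeq sequences of GRCm38.p6, all on the plus strand, at chr15:88819396-88819695 (Creld2), chr14:118937682-118937981 (Dnajc3), chr10:75893148-75893447 (Derl3) and chr12:17266339-17266638 (Pdia6), with the element in capitals. It begins 126, 105, 156 and 98 bases before the start in this order, and a match of letters is not evidence of binding. In the Creld2 and Derl3 windows the element lies on the opposite strand, so the capitals there are its reverse complement.
Creld2: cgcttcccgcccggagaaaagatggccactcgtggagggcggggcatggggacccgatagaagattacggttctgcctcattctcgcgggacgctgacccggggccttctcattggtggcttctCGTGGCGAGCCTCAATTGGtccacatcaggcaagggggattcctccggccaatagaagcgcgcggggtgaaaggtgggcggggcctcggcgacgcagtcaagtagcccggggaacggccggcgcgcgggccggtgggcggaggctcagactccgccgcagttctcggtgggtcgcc
Dnajc3: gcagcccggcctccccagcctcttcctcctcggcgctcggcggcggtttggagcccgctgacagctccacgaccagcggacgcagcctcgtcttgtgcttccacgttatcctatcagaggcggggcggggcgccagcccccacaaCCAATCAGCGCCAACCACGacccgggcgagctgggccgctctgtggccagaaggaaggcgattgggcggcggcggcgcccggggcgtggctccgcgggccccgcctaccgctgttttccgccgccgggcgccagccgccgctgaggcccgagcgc
Derl3: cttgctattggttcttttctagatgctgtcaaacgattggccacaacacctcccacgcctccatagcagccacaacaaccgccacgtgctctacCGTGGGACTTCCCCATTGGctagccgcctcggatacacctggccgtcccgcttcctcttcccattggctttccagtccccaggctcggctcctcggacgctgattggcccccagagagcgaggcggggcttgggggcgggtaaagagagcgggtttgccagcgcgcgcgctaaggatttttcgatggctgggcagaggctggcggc
Pdia6: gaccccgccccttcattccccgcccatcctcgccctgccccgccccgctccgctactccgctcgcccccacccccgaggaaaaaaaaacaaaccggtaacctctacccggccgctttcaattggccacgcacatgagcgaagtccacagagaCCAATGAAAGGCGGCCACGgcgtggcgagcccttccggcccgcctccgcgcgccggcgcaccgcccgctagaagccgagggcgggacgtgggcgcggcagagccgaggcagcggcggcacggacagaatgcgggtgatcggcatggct

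The integrated stress response, in which ATF4 raises amino acid synthesis and other genes, gave 6 of 26 genes higher and 0 lower under lithium. This stands beside 3.19% and 3.06% of all genes tested, and the list's median log2 difference was 0.08. Psph, the last enzyme of serine synthesis, had between 357 and 614 normalized reads under lithium (median 426) and between 304 and 407 under fluoxetine (median 368). Lithium mice were higher with overlap, by 0.33 ± 0.07 (limma adjusted p = 0.00259). Mthfd2 (0.42) and Shmt2 (0.18), enzymes of mitochondrial one-carbon metabolism, and Cebpb (0.42), Ddit4 and Ppp1r15a (0.19) were the others. With only the 4 groups compared in the fit, 1 of the 26 passed.

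Some nuclear-coded subunits of the respiratory chain were slightly higher under lithium. Of 36 complex I subunits 5 were called higher, and of 41 subunits of complexes II to V 9 were called higher, with 0 lower in both lists and a median log2 difference of 0.08 and 0.09. These counts and the ribosomal ones below stand beside 3.19% of all genes tested called higher and 3.06% lower. Ndufv2 had between 2564 and 3627 normalized reads in lithium mice (median 2871) and between 2313 and 2817 in fluoxetine mice (median 2526; log2 difference 0.22 ± 0.04, limma adjusted p = 0.002). Atp5c1, a subunit of ATP synthase, averaged 6151 ± 626 under lithium and 5413 ± 223 under fluoxetine (0.18 ± 0.04, adjusted p = 0.00233). Of the complex I subunits 19 were called higher in lithium minus vehicle and 5 in fluoxetine minus vehicle, beside 8.25% and 1.46% of all genes tested. Of 82 cytosolic ribosomal proteins 7 were called higher and 1, Rps6, lower, with a median of 0.07. HT lithium female 4 was the highest mouse for Rpl35 at 2442 and for Ndufv2 at 3627. Without that mouse 3 complex I subunits, 4 subunits of complexes II to V and 4 ribosomal proteins were called, and without HT lithium male 2 the counts were 3, 5 and 5. The ribosomal count was 15 without HT lithium male 4.

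Of 13 genes of the mitochondrial genome 2 were called lower under lithium, mt-Nd4l (−0.57 ± 0.15, limma adjusted p = 0.0181) and mt-Nd6 (−0.32 ± 0.10, adjusted p = 0.0314), and 0 higher. mt-Nd4l differed by −0.23 in females and −0.91 in males, and mt-Nd6 by −0.12 and −0.53. The males are the sex in which the drugs differ in Gm10221 reads, and the part of that division in these values was not tested. Without HT lithium male 1 neither gene passed.

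The RNA of Gsk3a, Gsk3b, Impa1 and Impa2, which encode enzymes that lithium inhibits, did not pass the test. Gsk3a and Gsk3b, the GSK3 kinases, differed by 0.01 ± 0.04 and −0.02 ± 0.04 (limma adjusted p = 0.947 and 0.847). Of 39 genes of the GSK3 and WNT pathway, Axin1 was called higher (0.13), and Nkd1 (−0.26) and Apc (−0.21) lower, with a list median of −0.05, beside 6.25% of all genes tested that were called. All 3 encode negative regulators of beta-catenin signalling. Impa1 and Impa2, the inositol monophosphatases, differed by 0.03 ± 0.03 and 0.19 ± 0.09 and did not pass (adjusted p = 0.642 and 0.228). Of 39 inositol and phosphoinositide enzymes 2 were called higher and 3 lower, with a median of −0.0031, and without HT lithium female 4, HT lithium male 2 or HT fluoxetine male 4 the genes called numbered 2.

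Itpkc, which phosphorylates inositol trisphosphate, had 160 to 205 normalized reads under lithium (median 180), 117 to 170 under fluoxetine (median 147) and 190 to 211 under vehicle. Lithium mice were higher than fluoxetine mice with some overlap, by 0.33 ± 0.06 (limma adjusted p = 0.000879). Of 18 serotonin genes, Htr3a (0.29) and Htr5a (0.21) were called higher under lithium, and Maob (−0.26) and Htr1a (−0.27) lower, beside 6.25% of all genes tested that were called. Htr1a, a receptor that inhibits the neurons that carry it, had 456 to 663 under lithium (median 568) and 573 to 733 under fluoxetine (median 689; −0.27 ± 0.08, adjusted p = 0.0286). Without HT lithium female 4 or without HT lithium male 2 the serotonin genes called numbered 1. Of 27 genes of the mTOR complexes and the TSC brake 0 passed in limma.

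**Figure D4:**
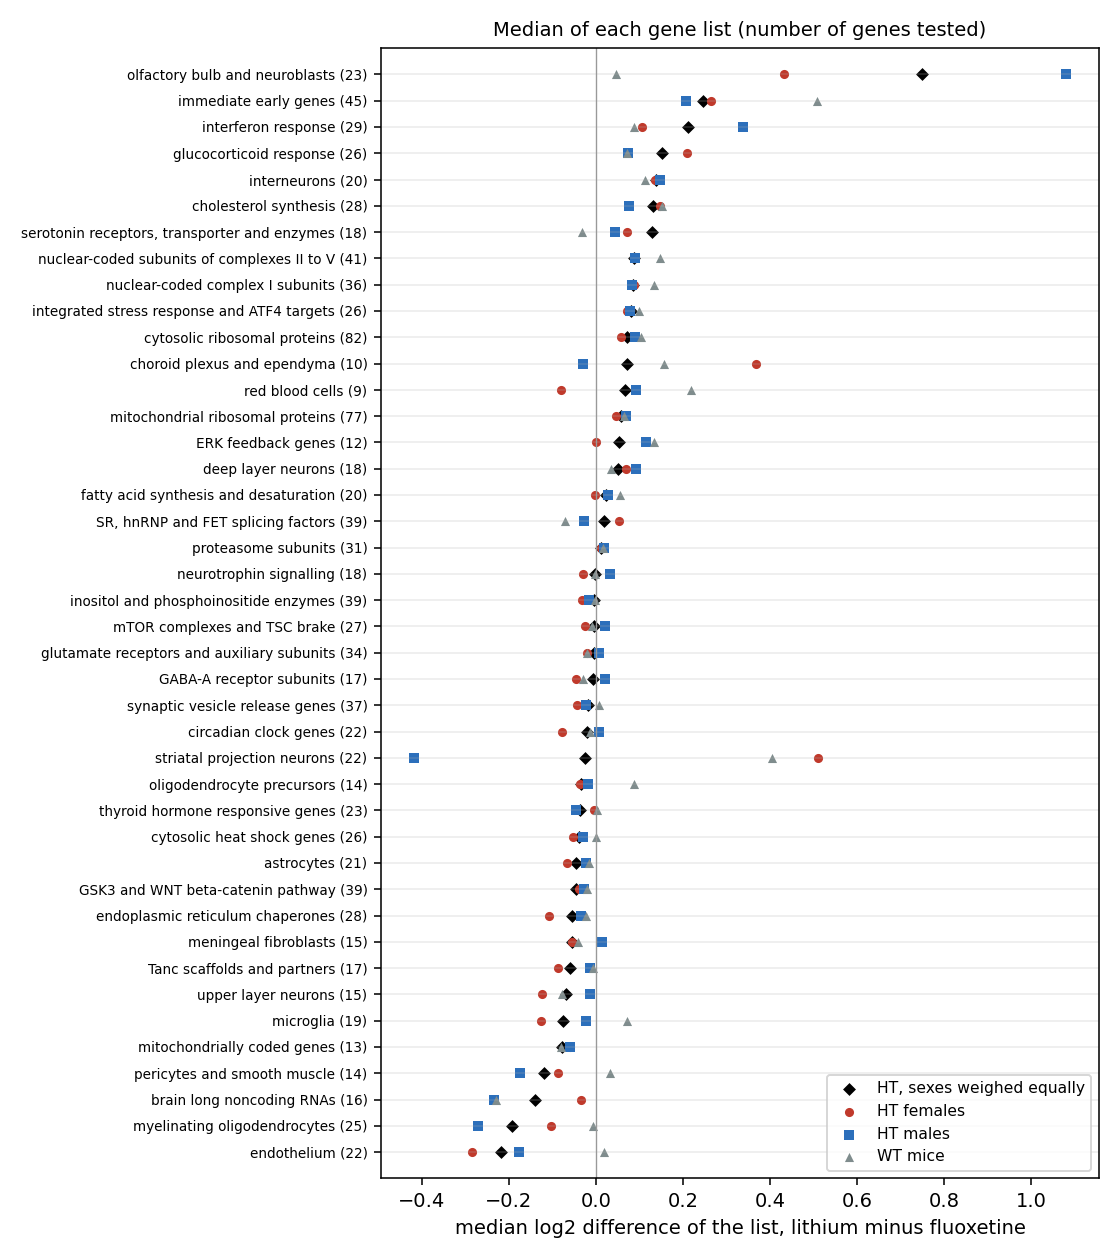
Median log2 difference, lithium minus fluoxetine, of 42 gene lists in HT mice with sexes weighed equally, in HT females, in HT males and in WT mice. The immediate early list stands at 0.25 in HT and 0.51 in WT mice, and the endothelium list at −0.22 in HT and 0.02 in WT mice.

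Part of the markers of blood vessels were lower under lithium than under fluoxetine. Of 22 endothelial markers 8 were called lower and 0 higher, beside 3.06% and 3.19% of all genes tested. All 22 had a difference below 0, and the median log2 difference was −0.22, with −0.28 in females and −0.18 in males. In bulk tissue, fewer cells of a type and less RNA per cell cannot be told apart. Sox18, an endothelial transcription factor, had between 120 and 203 normalized reads in lithium mice (median 148) and between 164 and 276 in fluoxetine mice (median 225). HT lithium male 4 was the highest lithium mouse and the other 8 had at most 160, and the log2 difference was −0.51 ± 0.11 (limma adjusted p = 0.00231). Kdr, the main VEGF receptor, had 515 to 955 under lithium (median 646) and 772 to 1099 under fluoxetine (median 903; −0.44 ± 0.09, adjusted p = 0.00268). Ptprb (−0.37), Flt1 (−0.37), Cldn5 (−0.31), Foxq1 (−0.41), Eng (−0.23) and Pecam1 (−0.28) passed as well. Sox18 differed by 0.14 in lithium minus vehicle and 0.66 in fluoxetine minus vehicle, and Ptprb by −0.35 and 0.02. Over the 22 markers the summed normalized reads ran from 25646 to 28593 under lithium and from 27357 to 36752 under fluoxetine, with none of the markers at 0 in every mouse. Leaving out HT fluoxetine female 4, whose sum was the highest, left 6 markers called. With Gm10221 reads as a term of the fit and sex additive, 1 marker passed.

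**Figure D5:**
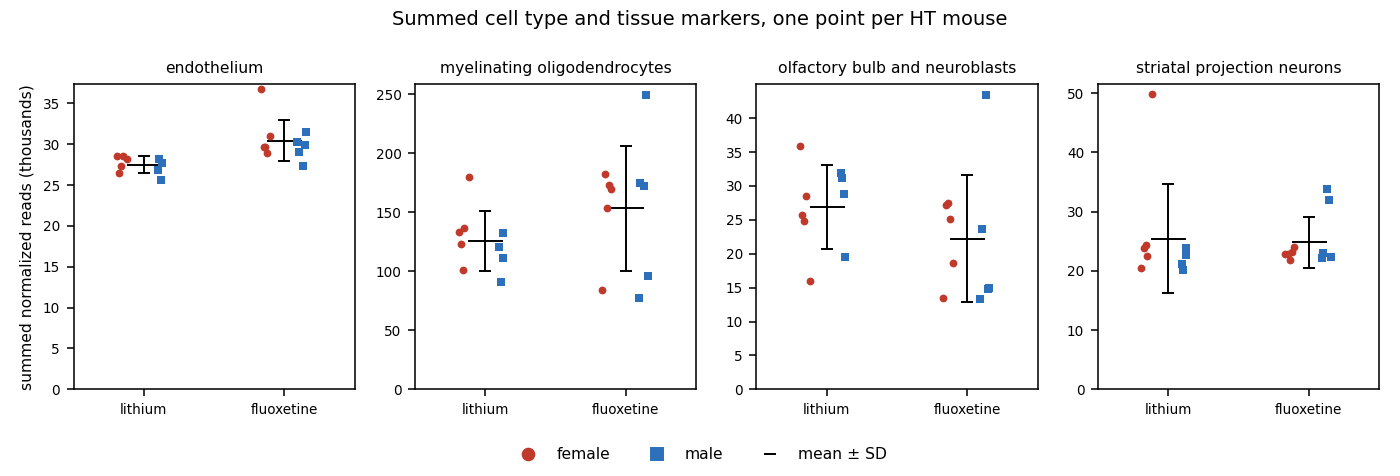
Summed normalized reads (each axis unit is 1000 reads) over markers of endothelium, myelinating oligodendrocytes, olfactory bulb and neuroblasts, and striatal projection neurons in each HT lithium and HT fluoxetine mouse, with bars for mean ± SD. Endothelial sums run from 25646 to 28593 under lithium and from 27357 to 36752 under fluoxetine, and 1 lithium female stands apart in striatal markers at 49763.

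Counts of the next cell types stand beside 3.06% of all genes tested that were called lower and 3.19% higher. Among 14 markers of pericytes and smooth muscle, Abcc9, part of a potassium channel of pericytes, was called lower (−0.48 ± 0.09, limma adjusted p = 0.000914). Of 19 microglial markers 3 were called lower under lithium and 0 higher, Cx3cr1 (−0.27), Trem2 (−0.28) and Gpr34 (−0.32), with a list median of −0.07. Cx3cr1, the fractalkine receptor, had 1150 to 1345 normalized reads under lithium (median 1218) and 1184 to 1766 under fluoxetine (median 1449). Summed microglial markers ran from 14860 to 18928 under lithium and from 16148 to 21481 under fluoxetine. Of 21 astrocyte markers F3 was called higher (0.31) and Ntsr2 (−0.28), Sox9 (−0.32) and Fgfr3 (−0.18) lower, and the calls numbered 2 without HT lithium male 3 and 7 without HT lithium male 4. None of the 25 myelin markers passed, with a median of −0.19 and summed levels of 90908 to 179665 under lithium and 77651 to 249881 under fluoxetine.

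Counts of layer markers stand beside 3.06% of all genes tested that were called lower and 3.19% higher. Among cortical neurons, 3 of 15 upper layer markers were called lower under lithium, Otof, Lamp5 (−0.33) and Rasgrf2 (−0.20). Of 18 deep layer markers 2 were called higher, Ccn2 (0.57), a marker of the deepest layer, and Bcl11b (0.31), a transcription factor of neurons projecting below the cortex. Ccn2 had between 602 and 1254 normalized reads in lithium mice (median 982) and between 309 and 808 in fluoxetine mice (median 652). Lithium mice were higher with overlap, by 0.57 ± 0.14 (limma adjusted p = 0.00975). Dissection depth was not recorded in the labels, and its part in these layer markers was not tested. The upper layer list kept 1 call without HT fluoxetine female 4, HT fluoxetine male 1, HT lithium female 4 or HT lithium male 2. Without HT fluoxetine male 3 it had 5. The deep layer list kept 1 call in 10 of the sets with 1 library left out. Among these were the sets without HT fluoxetine female 4, HT lithium female 4 and HT lithium female 2, the mouse highest in striatal markers.

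Markers of neighbouring tissue varied between mice, and their counts stand beside 6.25% of all genes tested that were called. Of 23 markers of olfactory bulb and neuroblasts 22 had a difference above 0 with a median of 0.75, and 1 passed, Islr2 (0.23 ± 0.07, limma adjusted p = 0.0313). The count was 0 without HT fluoxetine female 4, HT fluoxetine male 1, HT lithium female 2, HT lithium female 4, HT lithium male 2 or HT lithium male 3, and 2 without HT fluoxetine male 3. Their summed reads ran from 16033 to 35903 under lithium and from 13284 to 43450 under fluoxetine. The median log2 difference was 0.43 in females and 1.08 in males. Summed reads had medians of 25753 under lithium and 25094 under fluoxetine in females, and of 30006 and 14950 in males. Of 22 striatal markers 0 passed, with a median of 0.51 in females and −0.42 in males. Without HT fluoxetine male 3, the mouse highest in olfactory bulb markers, 1573 genes passed between the drugs, and without HT lithium female 2, the mouse highest in striatal markers, 1094 passed. The part of neighbouring tissue in the other results was not tested beyond these values.

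Counts in the synaptic lists stand beside 6.25% of all genes tested that were called. Of 34 glutamate receptor and auxiliary subunits 1 was called, Gsg1l, lower under lithium (−0.29 ± 0.08, limma adjusted p = 0.026), and of 17 GABA-A receptor subunits 0. Rims1 (−0.35) and Vamp1 (−0.27), which act in vesicle release, were lower among 37 genes of that process. Of 17 Tanc scaffolds and partners Dlg1, the scaffold SAP97, was lower (−0.12 ± 0.04, adjusted p = 0.0427). That count was 0 in 11 of the 19 sets with 1 library left out, 2 without HT lithium male 4 and 3 without HT fluoxetine male 3, and the glutamate list ran from 0 (without HT lithium male 2, for one) to 3 (without HT lithium male 4). Long noncoding RNAs of neurons were lower under lithium in 4 of 16 cases and higher in 0, beside 3.06% and 3.19% of all genes tested. Their median was −0.03 in females and −0.23 in males. In females 0 of the 16 passed, and in males 3 were called lower, beside 0.251% and 0.72% of all genes tested called lower. The males are the sex in which the drugs differ in Gm10221 reads, and the part of that division in these values was not tested. Meg3, from the imprinted Dlk1-Dio3 region, had 102739 to 138655 normalized reads under lithium (median 119690) and 121867 to 162164 under fluoxetine (median 143675; −0.27 ± 0.07, adjusted p = 0.00843). Rian (−0.21), Snhg11 (−0.22) and Snhg14 (−0.33) were the others, and Snhg14 stood at 3319 in HT lithium female 4 and at 6221 or more in every other lithium mouse.

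The same contrast in WT mice, which shares no library with the HT mice, called 1712 genes (9.55%), 948 higher (5.29%) and 764 lower (4.26%) under lithium. Gm10221 reads were present in 10 of 10 WT lithium mice and in 3 of 10 WT fluoxetine mice, all 3 female, so this contrast is not free of that division, and its part in the shared calls was not tested. Of the 1121 genes called in HT mice 1028 had the same sign in WT mice, 427 passed there with the same sign, and 0 passed with the opposite sign. These 427 are 38.1% of the HT calls and 24.9% of the WT calls. Across all genes tested the Pearson r of the log2 differences was 0.41, with genes not being independent replicates. In WT mice 31 of 45 immediate early genes were called higher, with a median of 0.51, and 0 of 22 endothelial markers passed in either direction, with a median of 0.02. A test of the difference between genotypes passed for 0 genes in limma, with a smallest adjusted p of 0.143, 0 in edgeR and 3 in DESeq2, and 1567 genes (8.74%) had an unadjusted limma p under 0.05. The immediate early genes and the endothelial markers are therefore not shown to differ between HT and WT mice in this contrast.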

How the data were processed

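Prefrontal cortex RNA of 58 mice was sequenced as strand-specific polyadenylated libraries, per the labels' protocols. The deposited signal values are read counts per gene divided by a size factor of the library, as the values themselves and the DESeq name in the deposited table show. The submitters' processing notes name Salmon 0.11.2, R 3.6.0, DESeq2 1.19.11 and GRCm38, with no role for each. Each value was a whole multiple of what 1 read is worth in its library (100% of values within 0.01), and whole reads recovered this way gave the depths and the count tests. In 11 libraries 1 read is worth close to 1. Gene positions are GENCODE vM21 (18077 of 18088 genes matched).

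Genes with a value of 10 or more in at least 4 libraries (17925) were tested with limma 3.58.1 with trend (R 4.3.3) on log2(value + 1), which understates changes of low genes. All 58 libraries, in the 12 combinations of sex, drug and genotype, were fitted together, contrasts weighed the sexes equally, and p-values were adjusted by Benjamini-Hochberg over all genes tested with a threshold of 0.05 (two-sided). Within groups every pair of libraries differed by more than sampling noise, so none was treated as a repeat. Alternatives were edgeR 4.0.16 (quasi-likelihood) and DESeq2 1.42.0 on whole reads, other scaling, filters and pseudocounts, a replicate block, terms for Gm10221 reads or for 2 surrogate variables (sva 3.50.0), and each of the 19 libraries left out. The fit with the Gm10221 term had sex as an additive term in place of groups by sex. The script was tested on simulated data.

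Named were the 14 genes of smallest p in each direction with a mean of at least 50, up to 5 genes of smallest p per list, Tanc2, Gm10221 and mt-Atp6. The other list members given by name were chosen after their values were seen. The comparison, its members and the 42 gene lists were chosen with earlier results of these data known. Several lists share genes, and some list members are not reported here by name. Promoter letters were sought in RefSeq windows on both strands; 20 of the 28 cholesterol genes had one, too few for that check, which is void, and the immediate early genes had 36 of 45.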

Additional observations from a re-analysis of the deposited data

Results flagged for a closer look

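Of 124 groups of 4 or 5 mice examined, 10 held a mouse whose gap to its neighbour exceeded Dixon's 95% critical value, and chance gives about 1 in 20. Zfp189 stood at 199.5 normalized reads in HT fluoxetine male 3, the highest of the 5 males and still below every lithium mouse. Tmem252 stood at 138.9 in HT lithium female 2 and at 73.12 in HT lithium male 3. Nedd9 stood at 201.1 in HT fluoxetine female 3, and Rpl35 at 2442 in HT lithium female 4. Among lower genes, Cpne1 stood at 586.1 in HT lithium male 3, Cpne5 at 2437 in HT lithium female 2 and Otof at 1149 in HT fluoxetine female 4. Tanc2 stood at 7424 in HT fluoxetine female 4.

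Summed markers of striatal projection neurons reached 49763 normalized reads in HT lithium female 2, apart from the other 4 lithium females. Gm10221 differed between the sexes in lithium minus fluoxetine, females minus males, by −6.88 on the log2 scale (limma adjusted p = 0.00266), because its reads were at 0 in all 5 HT fluoxetine males.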

How the results depend on the processing

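The 1121 genes (572 higher, 549 lower) were between 1119 and 1198 under other scaling, filters and pseudocounts, 1096 with edgeR and 1244 with DESeq2. They were 377 (195 higher, 182 lower) with only the groups compared in the fit and 218 (130 and 88) with Gm10221 reads as a term and sex additive. In HT libraries with those reads they were 5 (4 and 1), and with 2 surrogate variables 2134 (1127 and 1007). Leaving out 1 library gave 670 to 1573, with 356 to 767 higher and 314 to 806 lower.

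In females the 96 genes were 8 (7 higher, 1 lower) with only the groups compared, 339 (172 and 167) with 2 surrogate variables, 183 (105 and 78) with DESeq2, 42 (22 and 20) without the library highest in striatal markers, and 8 to 170 (7 to 73 higher, 1 to 101 lower) with 1 library left out. In males the 283 were 11 (5 and 6) with only the groups compared and 63 to 428 (35 to 226 higher, 28 to 202 lower) with 1 left out. The sex difference was 3 with only the groups compared, 0 with edgeR, 8 with DESeq2 and 1 to 4 with 1 left out. The 764 lower genes in WT mice were 450 with only the groups compared, and the genotype difference was 3 with DESeq2. The causes were not tested.

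Of the 28 named genes all kept their call in 32 of 34 settings and 0 changed direction. The exceptions were the Gm10221 term, which lost Rpl35 and Mllt6, and the HT libraries with Gm10221 reads, where 4 passed. Both numbers of settings count the sets without HT fluoxetine male 3 and without HT lithium female 2 again, as those highest in olfactory bulb and striatal markers. The 28 genes were chosen for small p in these same libraries, so keeping a call is not independent support. Tanc2, not called, was −0.02 in the report, turned to 0.018 with 2 surrogate variables, and ran from −0.046 without HT lithium male 3 to 0.018 without HT lithium female 4 (0.0054 without HT lithium male 2). Pairing of mice by replicate number was not found, though so few pairs cannot exclude it. Of 9 same-number correlations 1 was over 0.1 (−0.14 to 0.17), and those between other numbers ran from −0.325 to 0.233. A replicate block gave 1027 genes, 993 of them among the 1121. Leaving out libraries for males and the sex difference, and all settings for lists, were added after seeing the data.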

Other observations

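Counts of genes called here stand beside 6.25% of all genes tested (3.19% higher, 3.06% lower). Genes of the interferon response were mostly above 0 in lithium minus fluoxetine, 28 of 29 with a median log2 difference of 0.21, but 1 passed in limma, Lgals3bp (0.60). The median was 0.11 in females and 0.34 in males, and without HT lithium male 2 none of the 29 passed. Of 18 neurotrophin genes 1 was called higher under lithium and 1, the neuronal signalling adaptor Shc3, lower (−0.38), and the calls ran from 1 (without HT fluoxetine male 1, HT lithium female 4 or HT lithium male 2) to 7 (without HT fluoxetine male 3). Of 23 genes responsive to thyroid hormone, Flywch2 (0.36), Thra (0.18), the thyroid hormone receptor alpha, and Klf9 (0.15) were called higher, and Aldh1a1 (−0.31) and Dio3 (−0.56), the deiodinase that inactivates the hormone, lower. Without HT lithium female 4 or HT lithium male 3 none of the 23 passed.

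The next counts, too, stand beside 3.19% of all genes tested called higher and 3.06% lower, and that of the splicing factors is close to the 6.25% called in both directions. Of 39 splicing factors Hnrnpa0 (0.16), Hnrnpab (0.13) and Rbm3 (0.40), a protein induced by cold, were called higher and 0 lower, and without HT lithium female 4 none passed. Of 20 interneuron markers 18 were above 0 with a median of 0.14 and 0 passed in limma. Of 77 mitochondrial ribosomal proteins 6 were called higher and 2 lower with a median of 0.06, and the calls numbered 2 without HT lithium male 3 and 14 without HT lithium female 1.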
